A study of Homo sapiens with 22 samples.

Results

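RPPH1, RMRP, RN7SK, RN7SL1, RN7SL2 and TERC are 6 short noncoding RNAs that work inside protein-RNA machines. They were selected by symbol, and the choice rested on measured values, namely their low level in RNA recovered with PSF relative to input RNA in these libraries. Of the 6, RPPH1, RMRP and TERC each had 1 gene row and 1 antisense row among 20294 gene symbols. RN7SK, RN7SL1 and RN7SL2 had no row, so each was read from the intergenic interval that holds the gene on its own strand.

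RPPH1 is the RNA of ribonuclease P, which trims the 5′ ends of transfer RNA precursors, and RMRP is the RNA of the related RNase MRP, which cuts ribosomal RNA precursors. Both share most of their protein subunits. RN7SK holds the elongation factor P-TEFb in an inactive particle, RN7SL1 and RN7SL2 encode the RNA of the signal recognition particle, which directs secreted proteins to the endoplasmic reticulum, and TERC is the template RNA of telomerase. RNA polymerase III makes the first 5, while TERC is made by RNA polymerase II.

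PSF, also called SFPQ, is a nuclear RNA-binding protein of splicing and paraspeckles, and the series measured the RNA that came down with it in human prostate cancer cell lines. LNCaP and 22Rv1 are established lines that carry the androgen receptor, and the third line is labelled LTAD, a name the labels do not spell out. LNCaP and 22Rv1 were grown with 10% FBS and LTAD without phenol red and with 10% charcoal/dextran treated FBS, and before hormone each line spent 3 days in 2.5% charcoal/dextran treated FBS. Cells then received ethanol vehicle or 10 nM dihydrotestosterone (DHT), an androgen, for 24 h. Each line and treatment gave 1 input library with no antibody and 1 PSF-RIP library (RNA immunoprecipitation), 12 in all and 6 input and PSF-RIP pairs. LNCaP also had 4 PSF-CLIP peak lists, in which RNA was crosslinked to protein with UV, 2 per treatment.

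Input libraries held 1073228 to 3014049 mapped reads and PSF-RIP libraries 4641602 to 10439461. The mitochondrial share was 8.65% to 18.1% of input reads and 0.192% to 0.733% of PSF-RIP reads. All 8 prostate luminal markers examined had reads in every input library, summing to 2063 to 5630 RPM (mapped reads scaled to a common library total). Of 7 stromal, endothelial and blood markers, 6 were in the files and summed to 7.63 to 38.2 RPM, with PECAM1 at 0 in every input. SFPQ itself had 83.6 to 131 RPM in input and 215 to 327 in PSF-RIP (adjusted p = 2.04e-09), MALAT1 was higher in PSF-RIP by 1.24 on the log2 scale (SE 0.163, adjusted p = 1.62e-06), and NEAT1 stood at -0.99 (SE 0.0996, adjusted p = 3.94e-08). No immunoglobulin control was analysed here, so each PSF-RIP value is relative to input only.

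GENCODE names 848 genes beginning RN7SL and 294 beginning RN7SK. The files count uniquely mapped reads, so reads that fit several of these copies are not in the counts of RN7SK, RN7SL1 and RN7SL2.

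RMRP and RPPH1 carry the main contrast of the results, so their sequences are shown first (GRCh37). Both lay under a PSF-CLIP peak in 1 list, the second DHT list (named Anti-PSF-m, a name the sources used here do not explain), and the bases under it are in capitals. RMRP is shown whole (268 bases, chr9:35657748-35658015, minus strand) and RPPH1 by its first 300 bases (chr14:20811271-20811570, minus strand).
RMRP: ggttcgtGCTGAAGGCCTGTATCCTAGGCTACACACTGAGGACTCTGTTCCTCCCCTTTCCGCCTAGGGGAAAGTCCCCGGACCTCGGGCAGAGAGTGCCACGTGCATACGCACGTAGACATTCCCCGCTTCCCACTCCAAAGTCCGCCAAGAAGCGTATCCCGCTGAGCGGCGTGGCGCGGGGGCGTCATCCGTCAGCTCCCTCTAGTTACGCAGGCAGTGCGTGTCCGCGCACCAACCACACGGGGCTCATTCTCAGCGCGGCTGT
RPPH1: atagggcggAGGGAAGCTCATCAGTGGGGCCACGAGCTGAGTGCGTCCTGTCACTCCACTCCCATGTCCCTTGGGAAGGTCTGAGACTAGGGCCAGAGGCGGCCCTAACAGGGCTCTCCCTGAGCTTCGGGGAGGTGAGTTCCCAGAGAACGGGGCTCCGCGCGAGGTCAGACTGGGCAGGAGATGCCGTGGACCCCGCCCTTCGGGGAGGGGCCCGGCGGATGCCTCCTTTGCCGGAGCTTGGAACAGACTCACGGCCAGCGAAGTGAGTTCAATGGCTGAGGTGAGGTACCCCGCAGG
The peak left out the first 7 bases of RMRP and the first 9 of RPPH1. The peak lists give no strand, so the capitals mark positions only.

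The 60 bases before the RNA are shown for the 4 genes with a TATA that begins 35 to 20 bases before it. TERC, made by RNA polymerase II, is among them, so this window does not tell the polymerases apart. The letters TATA, searched on the transcribed gene's strand, are in capitals where they begin 35 to 20 bases before the first base of the RNA.
RPPH1, chr14:20811571-20811630: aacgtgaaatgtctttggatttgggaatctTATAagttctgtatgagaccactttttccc
RMRP, chr9:35658016-35658075: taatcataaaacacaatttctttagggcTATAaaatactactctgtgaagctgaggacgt
RN7SK, chr6:52860358-52860417: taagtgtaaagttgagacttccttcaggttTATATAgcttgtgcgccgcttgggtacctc
TERC, chr3:169482849-169482908: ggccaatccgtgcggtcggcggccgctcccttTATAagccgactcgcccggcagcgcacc
The motif began 30 bases before RPPH1 and RN7SK, 32 before RMRP and 28 before TERC. Neither RN7SL1 nor RN7SL2 had these letters in the window, and 5.67% of 35116 RefSeq promoters (GRCh38) did. GC content of the 6 RNAs was 58.0% (RN7SK) to 67.4% (TERC).

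RPPH1 (341 bases) was the nuclear gene row with the most reads in all 6 inputs and lost that place in all 6 PSF-RIP libraries. Its share of mapped input reads was 3.66% and 2.71% in LNCaP (vehicle, then DHT), 2.85% and 2.71% in 22Rv1, and 3.13% and 2.82% in LTAD. In PSF-RIP the shares were 0.0256% and 0.0198% in LNCaP, 0.0172% and 0.0243% in 22Rv1, and 0.0238% and 0.0228% in LTAD. The input and PSF-RIP groups were far apart and did not overlap. RPPH1 was thus 111-fold (22Rv1 DHT) to 166-fold (22Rv1 vehicle) lower in PSF-RIP, a mean log2 ratio of -7.07 ± 0.19 (SD, n = 6 pairs), and the lowest and the highest pair both came from 22Rv1. By reads it ranked 332 to 761 among nuclear genes in PSF-RIP, and per base of length it ranked 7 to 15.

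RMRP (268 bases) was second among nuclear genes per base of length in every input, and by that measure it kept a high place in PSF-RIP. Its input shares were 1.16% and 1.09% in LNCaP (vehicle, then DHT), 0.737% and 0.764% in 22Rv1, and 1.01% and 0.933% in LTAD. Its PSF-RIP shares were 0.0425% and 0.0334% in LNCaP, 0.0604% and 0.073% in 22Rv1, and 0.0408% and 0.0442% in LTAD. RMRP was lowest in 22Rv1 among the inputs and highest in 22Rv1 among the PSF-RIP libraries. The reduction was 10.5-fold (22Rv1 DHT) to 32.6-fold (LNCaP DHT), a mean log2 ratio of -4.30 ± 0.66 (SD, n = 6 pairs). Per base it still ranked 2 or 3 among nuclear genes in each PSF-RIP library, and by reads it ranked 50 to 230.

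The order of the 2 catalytic RNAs was turned round between input and PSF-RIP. Within each input library RPPH1 had 2.49 to 3.87 times the reads of RMRP, and 1.96 to 3.04 times per base of length. Within each PSF-RIP library RMRP had 1.66 to 3.51 times the reads of RPPH1. RMRP thus made up 20.5% to 28.6% of the reads of the pair in inputs and 62.4% to 77.8% in PSF-RIP. These ratios are taken inside a library, so they do not depend on its depth or on the other RNAs in it. The log2 ratio of RMRP exceeded that of RPPH1 by 2.07 to 3.76 in the 6 pairs (mean 2.77 ± 0.67, SD). The contrast between PSF-RIP and input was used to select these RNAs, so no test is attached to it.

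**Figure D1:**
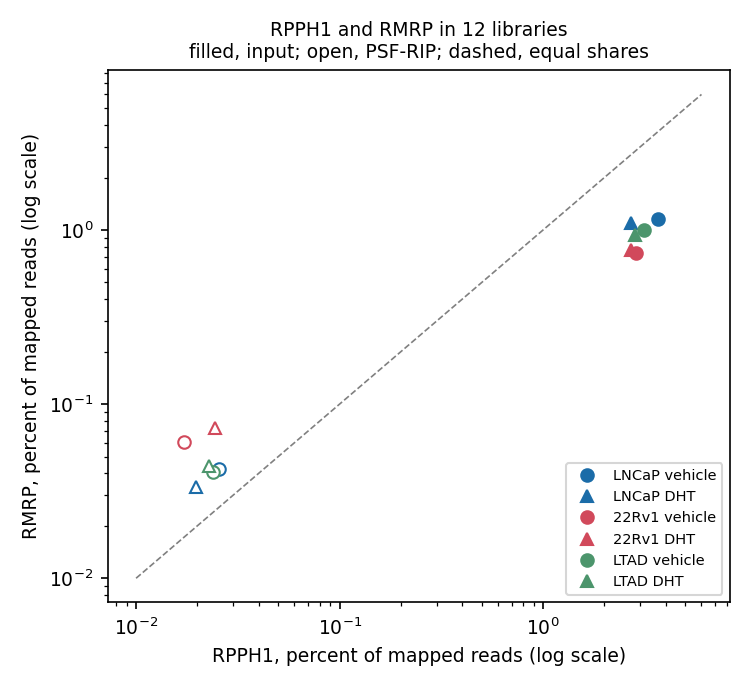
Share of mapped reads of RPPH1 (horizontal) and RMRP (vertical) in the 12 libraries, both in percent on log axes, with colour for the line and shape for the treatment. The 6 filled input points lie under the dashed line of equal shares, and the 6 open PSF-RIP points lie above it.

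RN7SK was the interval with the most intergenic reads in every input (chr6:52860179-52866097 on the plus strand, 5919 bases, with the 331-base gene at chr6:52860418-52860748). Its share ran from 3.19% in LTAD DHT up to 7.38% in 22Rv1 vehicle, more than RPPH1 in each input. In PSF-RIP it took 0.0442% (LTAD DHT) to 0.142% (22Rv1 DHT), which was 45.9-fold to 72.2-fold lower (mean log2 ratio -5.93 ± 0.31, SD, n = 6 pairs). By reads, its interval ranked 1 to 3 among intergenic intervals in PSF-RIP. The opposite strand of the interval held at most 2 reads in any library.

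The intervals of the 7SL RNA genes had fewer unique reads. The RN7SL2 interval (chr14:50319922-50359735, minus strand) also holds RN7SL3 and took 0.196% (22Rv1 DHT) to 0.441% (LTAD vehicle) of input reads and 0.00259% (22Rv1 vehicle) to 0.0108% (LNCaP vehicle) of PSF-RIP reads. The mean log2 ratio was -5.93 ± 0.55 (SD, n = 6 pairs), with the smallest reduction, 33.5-fold, in LNCaP vehicle. The RN7SL1 interval (chr14:50053135-50065414, plus strand) took 0.078% (LNCaP vehicle) to 0.228% (LTAD vehicle) of input and 0.000948% (22Rv1 vehicle) to 0.0026% (LNCaP vehicle) of PSF-RIP reads. Its mean log2 ratio was -6.23 ± 0.90 (SD, n = 6 pairs), the widest spread of the 6 RNAs. The ratios of RN7SL1 and RN7SL2 did not keep one order: RN7SL1 minus RN7SL2 ran from -0.79 to 0.16.

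These long intervals hold other sequence besides the 7SL genes. In PSF-RIP the opposite strand of the RN7SL1 interval held 6 to 20 reads against 88 to 150 on the gene's strand. For RN7SL2 it held 4 to 47 against 200 to 603. How many gene-strand reads fall outside the gene was not tested.

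TERC (451 bases, chr3:169482398-169482848, minus strand) was the rarest of the 6 in input and had the smallest reduction. It had 152 and 112 input reads in LNCaP (vehicle, then DHT), 136 and 114 in 22Rv1, and 58 and 52 in LTAD. These are 0.00328% (LTAD DHT, exact binomial 95% interval 0.00245% to 0.0043%) to 0.0083% of mapped reads (LNCaP vehicle, interval 0.00703% to 0.00973%). Such intervals cover counting error only. PSF-RIP libraries, which were deeper, held 59 to 150 TERC reads, or 0.000679% (LTAD DHT) to 0.00187% (LNCaP vehicle). The groups did not overlap, and the reduction was 3.14-fold (22Rv1 vehicle) to 4.83-fold (LTAD DHT), a mean log2 ratio of -2.002 ± 0.254 (SD, n = 6 pairs).

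All 6 RNAs had a lower share in every PSF-RIP library than in any input. Over all 13368 genes tested, 4.11% showed that non-overlap. Since low PSF-RIP levels entered the selection, nothing is read from that count. RPPH1 was the lowest of the 6 in 5 of 6 pairs by the ratio of shares, with RN7SL1 0.16 lower in LTAD DHT. RN7SK and RN7SL2 differed by a mean of 0.00128 (SD 0.436), so those neighbours in the order could not be separated.

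**Figure D2:**
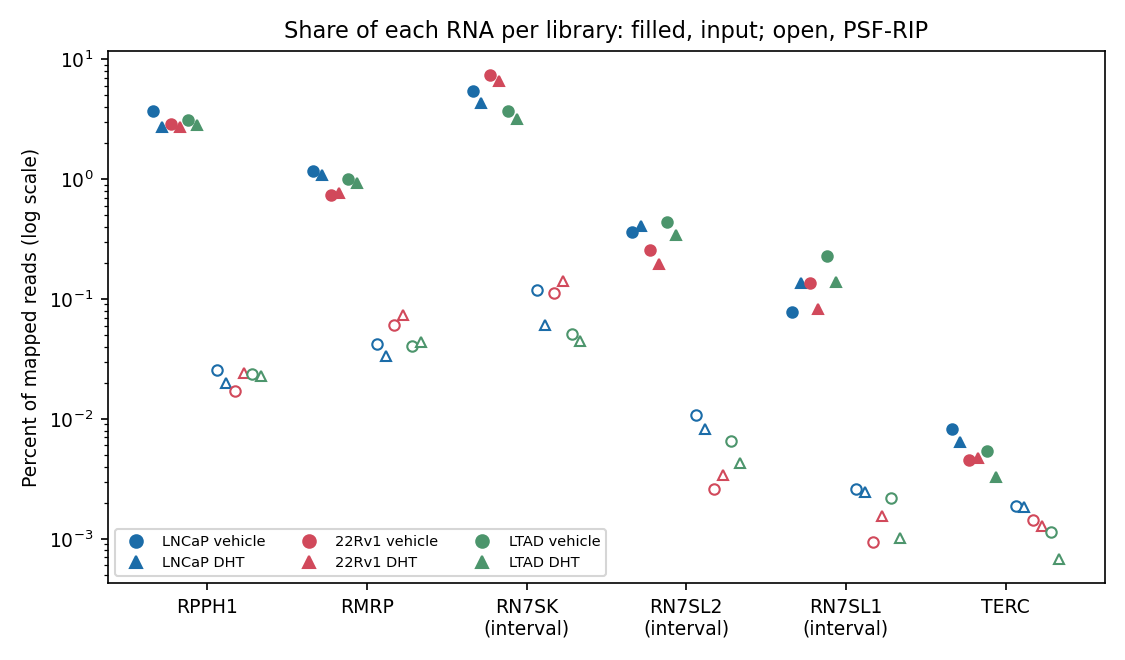
Percent of mapped reads (log axis) taken by each RNA in each library, filled for input and open for PSF-RIP, with colour for the line and shape for the treatment. Each RNA's filled points lie above all of its open points, and TERC has the narrowest gap.

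**Figure D3:**
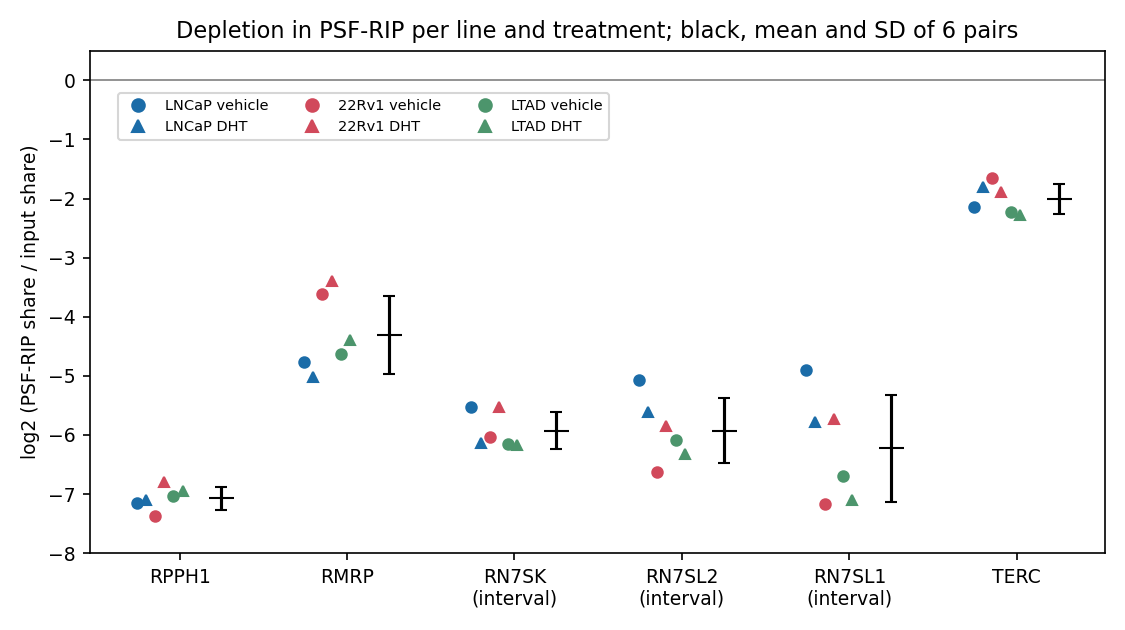
Log2 of the PSF-RIP share over the input share per line and treatment, with the mean and SD of the 6 pairs in black. RPPH1 is tightly grouped near -7.07, the 2 22Rv1 points of RMRP sit above its other 4, and TERC lies nearest to 0.

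Exonic length moved with the PSF-RIP value across all genes. The median fitted log2 difference (edgeR, TMM scaling) was -1.59 over 173 nuclear genes of up to 500 bases and 0.21 over 4794 nuclear genes longer than 4000 bases. The RNAs of this set were left out of the genes of similar length. Among 49 genes within 100 bases of the length of RPPH1, the median was -1.68 and the range -3.85 to 0.86, and RPPH1 at -7.43 was lowest. Among 30 genes near RMRP in length the median was -1.64 and the range -3.71 to 0.86, and RMRP at -4.67 was below all 30. RPPH1, left out there, is also within 100 bases of RMRP in length and was lower than RMRP. TERC at -2.35 ranked 25 from the bottom beside 130 genes of its length, whose median was -1.71. These RNAs were selected by this same contrast, so their places are a description. With the length trend of each library taken out, the mean log2 ratios were -5.76 for RPPH1, -3.03 for RMRP and -0.75 for TERC.

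**Figure D4:**
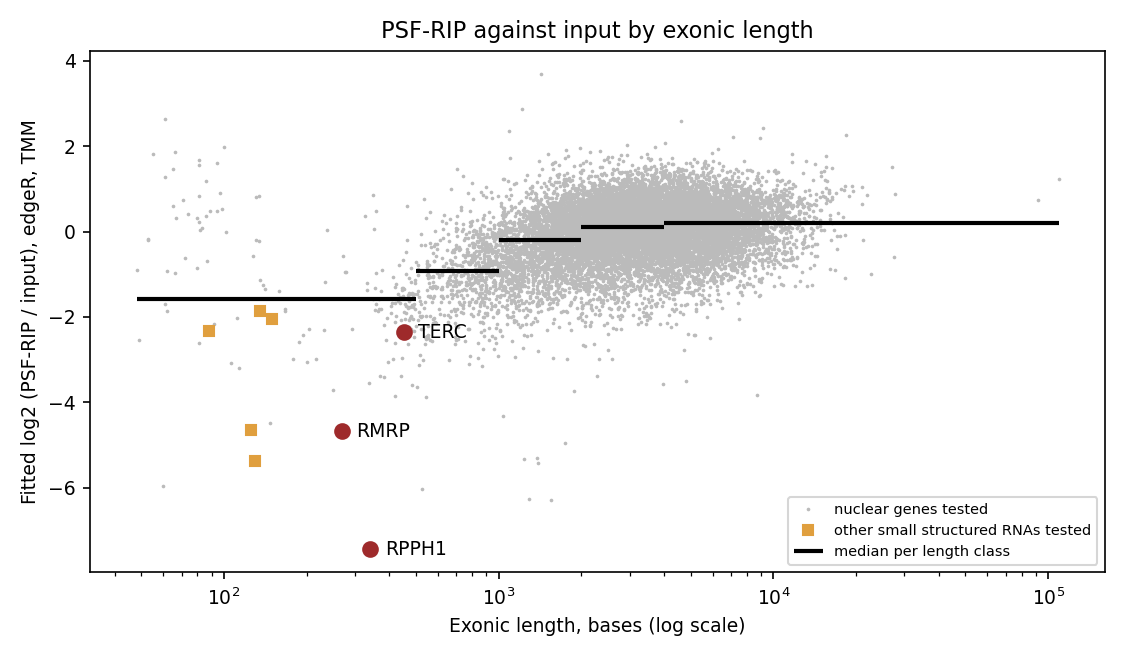
Fitted log2 difference of PSF-RIP against input for every nuclear gene tested (grey) by exonic length in bases (log axis), with the median of each length class as a black bar. RPPH1 at -7.43 lies below all genes of similar length, RMRP at -4.67 lies below all of them but RPPH1, and TERC at -2.35 lies among them.

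Antisense rows were nearly empty at these genes. RPPH1 had 2 to 18 antisense reads per input library, 57 in all against 344115 sense reads, and 0 in every PSF-RIP library. That 0 allows up to 0.0714 RPM (3 reads over the group), and the inputs had 4.89 RPM. As a share of the sense reads of RPPH1, the inputs had 0.0166% and the 0 in PSF-RIP allows up to 0.0327%. RMRP had 22 antisense reads in all inputs and 1 in all PSF-RIP libraries. These rows were part of the selection, so their counts are a description. TERC had 1 antisense read in each group.

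The cell lines were next compared in the inputs. The RNAs were chosen with earlier results of these data known, so their p-values here may not be independent of that choice. In bulk RNA, fewer cells of a type and less RNA per cell cannot be told apart. The vehicle and DHT library of a line served as its 2 samples, so a p-value reflects only how these libraries vary, which may be technical. Against LNCaP, 49.9% of 13776 genes differed in 22Rv1 and 8.22% in LTAD (edgeR, adjusted p under 0.05).

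RN7SK was higher in 22Rv1 than in LNCaP input by 0.80 on the log2 scale (SE 0.235, adjusted p = 0.0135). Its shares were 7.38% and 6.6% in 22Rv1, 5.41% and 4.28% in LNCaP and 3.67% and 3.19% in LTAD. The mitochondrial share also stood apart in 22Rv1 input, at 14.7% and 18.1% against 8.65% to 10.5% in the other lines, and its part in this result was not tested. RN7SL2 was lower in 22Rv1 by 0.51 (log2 difference -0.51, SE 0.196, adjusted p = 0.0447), a call that DESeq2 did not make (adjusted p = 0.0659). The call on RN7SK was lost when any 1 of the 4 inputs of these 2 lines was left out (adjusted p = 0.0642 to 0.132), and that on RN7SL2 when LNCaP DHT, 22Rv1 vehicle, 22Rv1 DHT or LTAD vehicle input was left out (0.0544 to 0.458). RPPH1 (log2 difference 0.08, SE 0.184), RMRP (-0.32, SE 0.156), TERC (-0.40, SE 0.204) and RN7SL1 (0.25, SE 0.345) did not pass. RMRP passed without the filter on low counts (adjusted p = 0.0456) or without a LNCaP PSF-RIP library (0.0268 and 0.0293), and RN7SL1, at 1.06, without LNCaP DHT input (0.0255). So 2 of the 6 RNAs passed where 49.9% of genes did.

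TERC was the one RNA called in LTAD, with a log2 difference from LNCaP input of -0.995 (SE 0.223, adjusted p = 0.0184). Its shares were 0.0054% and 0.00328% in LTAD and 0.0083% and 0.00642% in LNCaP. The call was lost without any 1 of these 4 inputs (adjusted p = 0.058 to 0.176). RN7SK at -0.70 (SE 0.234, adjusted p = 0.0904) and RMRP at -0.42 (SE 0.156, adjusted p = 0.125) did not pass, and both passed when no filter on low counts was used (0.00011 and 0.0246) or when a LNCaP PSF-RIP library was left out (0.00347 to 0.0335). RPPH1 stood at -0.29 (SE 0.184), RN7SL1 at 0.52 (SE 0.345) and RN7SL2 at -0.19 (SE 0.196).

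DHT gave no call among the 6 RNAs, against 86 of 13776 genes (0.624%) in all. The fitted differences in input were -0.40 for TERC (SE 0.175, adjusted p = 0.422), -0.31 for RPPH1 (SE 0.150, adjusted p = 0.46), -0.32 for RN7SK (SE 0.191), -0.31 for RN7SL1 (SE 0.284), -0.29 for RN7SL2 (SE 0.160) and -0.14 for RMRP (SE 0.127). By shares, only RPPH1 and RN7SK of the 6 had lower values with DHT in all 3 lines. How many of all genes did so was not counted. RPPH1 stood at -26%, -5.07% and -9.88% against vehicle in LNCaP, 22Rv1 and LTAD. RN7SL1 went opposite ways, at 74% in LNCaP and -38.8% in both 22Rv1 and LTAD.

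The change of PSF-RIP over input with DHT was called for 0 of 13776 genes by edgeR (0%) and 0 by DESeq2, with 225 genes at an unadjusted p under 0.05. For the 6 RNAs it ranged from 0.02 (RN7SK) to 0.30 (RPPH1, SE 0.215), and each had an adjusted p of 1.00 after rounding. In the 22Rv1 PSF-RIP library with DHT, RPPH1 had a share 41.3% above vehicle and RN7SL1 64.6%, RMRP, RN7SK and RN7SL2 were also above, and TERC stood at -11.4%. In the LNCaP PSF-RIP library with DHT all 6 were below vehicle, from -48.2% (RN7SK) to -1.95% (TERC). Each of these is 1 library against 1 and has no replicate.

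Whether the PSF-RIP reduction differed between lines was tested as the interaction of line and assay. The RNAs were selected by this reduction in the same libraries, so for them these p-values are a description. That also holds for the DHT comparison of PSF-RIP over input above. For 22Rv1 against LNCaP, edgeR called 0 of 13776 genes (0%), with 806 at an unadjusted p under 0.05, and DESeq2 called 7. For LTAD against LNCaP, edgeR called 0 (0%), with 716 at an unadjusted p under 0.05, and DESeq2 called 0.

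RMRP had the smallest unadjusted p of the 6. Its log2 ratio of PSF-RIP over input averaged -4.90 in LNCaP, -3.50 in 22Rv1 and -4.51 in LTAD, and both 22Rv1 values lay above the other 4. The fitted difference of 22Rv1 from LNCaP was 1.24 (SE 0.223, unadjusted p = 0.000113), which was not called (adjusted p = 0.306). It passed with DESeq2 (adjusted p = 0.00031), without the filter on low counts (4.91e-06), without the LNCaP vehicle PSF-RIP library (0.0199) and with the line-treatment pair as a block (1.25, adjusted p = 2.38e-12), a fit that leaves 2 residual degrees of freedom. With the length trend removed it did not (adjusted p = 0.567). RPPH1, by contrast, stood at -0.11 (SE 0.263) in 22Rv1 and 0.11 (SE 0.263) in LTAD, while the difference between RMRP and RPPH1 in this respect was not tested.

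The 7SL RNAs had estimates in the other direction. RN7SL2 stood at -1.04 in 22Rv1 (SE 0.289, adjusted p = 0.841) and -0.86 in LTAD (SE 0.285, adjusted p = 0.924), and RN7SL1 at -1.19 (SE 0.542, adjusted p = 0.847) and -1.44 (SE 0.534, adjusted p = 0.924). None of the 4 passed, also with any 1 library left out. The RN7SL1 estimates then ran from -0.49 (without LNCaP vehicle input) to -1.997 (without LNCaP DHT input) in 22Rv1 and, without the same libraries, from -0.75 to -2.25 in LTAD. Those of RN7SL2 ran from -1.43 to -0.65 and from -1.13 to -0.60. With the line-treatment block all 4 passed, with adjusted p = 1.1e-07 and 3.14e-05 for RN7SL2 and 5.37e-09 and 4.4e-13 for RN7SL1. That fit leaves 2 residual degrees of freedom, and it called 413 of 13776 genes in 22Rv1 and 275 in LTAD. Without the filter on low counts, RN7SL2 passed in 22Rv1 (0.0219) and RN7SL1 in LTAD (0.0123). RN7SK (-0.13, SE 0.333, and -0.39, SE 0.332) and TERC (0.06, SE 0.298, and -0.27, SE 0.313) did not pass in 22Rv1 or LTAD.

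PSF-CLIP gave a second readout in LNCaP. The second vehicle and second DHT list are named Anti-PSF-m by the submitters and the first lists Anti-PSF; what the m stands for is not given in the sources used here, so the lists of a treatment may not be replicates of one kind. The first vehicle list (24242 peaks) and the first DHT list (23580 peaks) had no peak at any of the 6 genes. The second vehicle list (7691 peaks) had one at RN7SK, RN7SL1 and RN7SL2, and the second DHT list (13546 peaks) had one at these 3 and at RPPH1 and RMRP. TERC had none. Of 900 annotated loci of at most 500 bases, 4.00% had a peak in the first vehicle list, 2.56% in the first DHT list, 0.333% in the second vehicle list and 1.44% in the second DHT list. Of the 576 such loci with input reads, 5.38%, 3.47%, 0.521% and 2.08% had one, in the same order of lists. All peaks at these RNAs thus came from the Anti-PSF-m lists.

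The peaks covered the positions of the RNAs nearly from end to end, and the lists give no strand for a peak. At RN7SK (chr6:52860426-52860733 in the vehicle list) the peak covered 93.1% of the RNA with an authors' score of 245, and in the DHT list 95.5% with a score of 333.5. At RN7SL1 the scores were 168.8 and 255.6, and at RN7SL2 156 and 258, over 96.3% to 99% of the RNA. Their scores placed RN7SK 108th, RN7SL2 181st and RN7SL1 186th of the 13546 peaks of the second DHT list. RMRP (score 71.5, chr9:35657743-35658008) was 5194th and RPPH1 (score 56.2, chr14:20811118-20811561, reaching 112 bases past its 3′ end) was 10147th. All 4 lists start at a score of 50, so the RPPH1 peak is close to their lower limit. Input libraries of the CLIP were not used here, and the part of RNA abundance in these peaks was not tested.

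**Figure D5:**
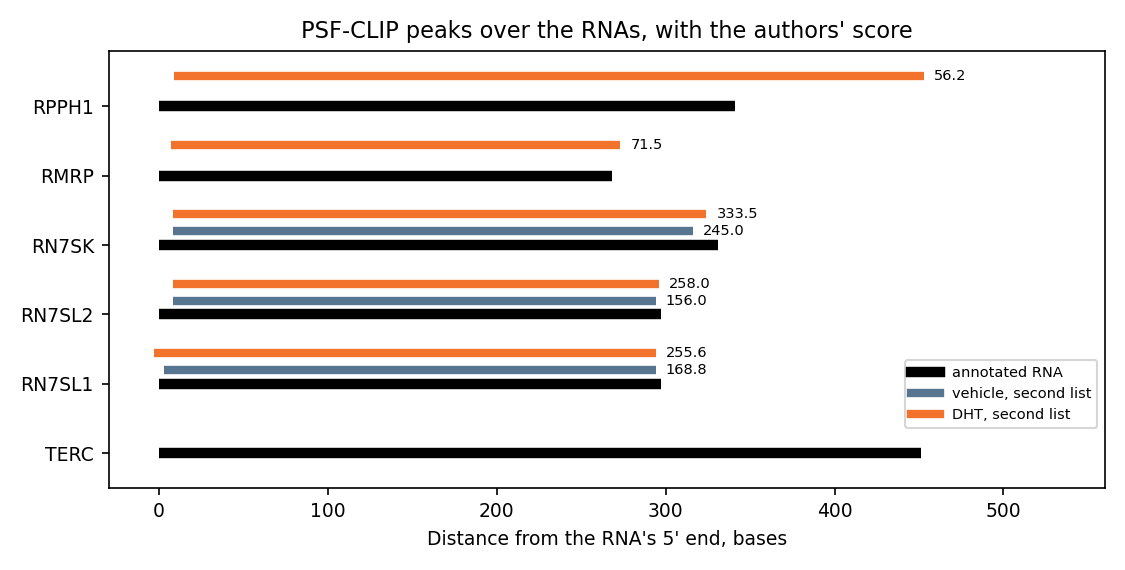
PSF-CLIP peaks (coloured bars, with the authors' score) in the second vehicle and second DHT list, by distance in bases from the 5′ end of each RNA (black bars). Peaks span nearly all of RN7SK, RN7SL1 and RN7SL2 in both lists, RPPH1 and RMRP have one in the DHT list, and TERC has none.

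Annotated genes within 1000 bases of these RNAs differed in direction in PSF-RIP. PARP2 (chr14:20811773-20826063, plus strand), a DNA repair enzyme that starts 202 bases upstream of RPPH1, was higher in PSF-RIP by 0.82 (SE 0.143, adjusted p = 4.79e-05). CCDC107, 271 bases upstream of RMRP, was lower (log2 difference -0.81, SE 0.158, adjusted p = 0.000181), a call lost with the length trend removed (0.0561). GSTA4, 239 bases from RN7SK, did not pass (-0.23, SE 0.165, adjusted p = 0.25). RPS29, a ribosomal protein gene 163 bases from RN7SL1, was lower by a log2 difference of -3.55 (SE 0.104, adjusted p = 9.11e-17).

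Messenger RNAs for the proteins that work with these RNAs were examined as lists, with all genes as background: 58.0% of 13368 genes were called in PSF-RIP against input, 30.5% higher and 27.5% lower, and the median was 0.05. Of 11 proteins of RNase P and MRP, 1 was higher and 6 lower, with a median of -0.39. POP7 (log2 difference -1.04, SE 0.112, adjusted p = 1.06e-07) was lower and POP1 (1.01, SE 0.171, adjusted p = 3.54e-05), the largest subunit, higher. With the length trend removed the counts were 4 higher and 2 lower, and POP7 no longer passed (adjusted p = 0.0552). Their range, -1.04 to 1.01, was far from the -7.43 of RPPH1 and the -4.67 of RMRP.

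Of 6 signal recognition particle proteins, 2 were higher and 4 lower (median -0.68), with SRP19 at -1.46 (SE 0.125, adjusted p = 3.87e-09) and SRP9 at -1.26 (SE 0.0898, adjusted p = 2.46e-10). Of 7 genes of the 7SK particle and P-TEFb, 3 were higher and 1 lower (median 0.18), with HEXIM1, the inhibitor that 7SK loads onto P-TEFb, at 0.78 (SE 0.114, adjusted p = 6.52e-06) and CCNT1, a cyclin of P-TEFb, at -0.50 (SE 0.102, adjusted p = 0.000275). Of 7 telomerase genes, 2 were higher and 2 lower (median -0.23), with NOP10 at -1.80 (SE 0.126, adjusted p = 1.76e-10) and NHP2 at -1.43 (SE 0.126, adjusted p = 5.87e-09), both of the H/ACA core that binds TERC. The other listed core members, added after their values were seen, were DKC1, which was higher at 0.68 (SE 0.0879, adjusted p = 1.24e-06), and GAR1, which did not pass (-0.23, adjusted p = 0.259).

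Of 23 genes of RNA polymerase III and its factors, 13 were higher and 5 lower (median 0.43). BRF1, a subunit of the initiation factor TFIIIB, was at 1.33 (SE 0.133, adjusted p = 3.74e-08) and CRCP at -0.90 (SE 0.0997, adjusted p = 1.55e-07). With the length trend removed 3 were lower. In the DHT comparison none of these lists had a called gene.

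Other small structured RNAs were the nearest comparison. Of 29 listed, 8 had a row, 5 were tested and all 5 were lower in PSF-RIP (median -2.32). RNU4ATAC, a small nuclear RNA of the minor spliceosome, was lowest at -5.38 (SE 0.33, adjusted p = 2.25e-11), between RMRP and RPPH1. It rested on 123 reads over all inputs and 14 over all PSF-RIP libraries, which limits its precision. RNU6ATAC had 43 and 8 reads and VTRNA1-2 had 23 and 24, with PSF-RIP libraries deeper. Rows with so few PSF-RIP reads may have passed the expression filter only through the inputs, where their levels were high. That all 5 were lower, and the p-value of RNU4ATAC, are therefore a description. RNU11, of the same spliceosome, was at -1.86 (SE 0.166, adjusted p = 7.14e-09), which did not pass with the length trend removed (adjusted p = 0.533), when 2 of the 5 stayed lower.

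The genes with the level pattern most like RPPH1 over the 12 libraries (Pearson correlation of log2 CPM, mitochondrial genes left out) were RPL32 (0.996), RPS12 (0.995) and RPL11 (0.994), all ribosomal protein genes. For RMRP they were RPS12 (0.996), TPT1 (0.995) and BRK1 (0.993). RMRP and RPPH1 correlated at 0.990, and RMRP came 11th for RPPH1. The 12 points share the division into input and PSF-RIP, and the libraries' depth differs along it. RPS12 stood at -3.64 and RPL32 at -2.98 in PSF-RIP against input, against -7.43 for RPPH1.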

How the data were processed

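RNA was measured in 12 input and PSF-RIP libraries of 3 cell lines and 4 CLIP peak lists. The deposited RIP and input files hold raw counts (uniquely mapped reads, hg19) for RefSeq transcripts, their antisense strands and intergenic intervals, per the file headers. TopHat2 2.1.0, Bowtie2 2.2.6 and Bowtie are named in the submitters' processing notes, without their roles. The CLIP lists give each peak's position and score as deposited by the authors, 1 list per library. Their peak names begin with MACS, per the files, and no version or setting of that caller is stated there. The last intergenic base lay within 50 bases of the GRCh37 length on 20 of 24 chromosomes and short of it on the other 4.

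Each gene was represented by its transcript with most reads. Shares are of all mapped reads. Counts were tested with edgeR 4.0.16 (quasi-likelihood, TMM, its expression filter, Benjamini-Hochberg adjustment at 0.05 over all genes) in R 4.3.3 with limma 3.58.1, after a test on simulated data; DESeq2 1.42.0 was an alternative. PSF-RIP against input had additive line and treatment terms, and the other comparisons had interactions of assay with line and with treatment. The intervals of RN7SK, RN7SL1 and RN7SL2 were added to the tests after the data were seen, since these symbols have no row, with scaling from the genes. RPPH1, RMRP and TERC passed the expression filter. RN7SL1 was placed by matching RN7SL2 to its interval, and RN7SK and RN7SL2 by GENCODE v44 lifted to GRCh37. Length trends were removed per library with lowess.

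The members and lists were chosen with earlier results of these data known. Named genes are the 2 of smallest p per partner list, neighbours within 1000 bases, the 3 most correlated genes for RPPH1 and RMRP, and SFPQ, NEAT1 and MALAT1. A second LNCaP set of 4 samples was left out, since its labels contradict each other and 12 of its columns could not be matched to a sample. The sequences of RN7SL1 and RN7SL2 are not reported here.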

Additional observations from a re-analysis of the deposited data

How the results depend on the processing

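Counting against nuclear exonic reads gave a mean log2 ratio of PSF-RIP over input of -7.35 for RPPH1 and -2.29 for TERC. With TMM scaling and a prior count of 2 it was -7.44, -6.30 and -2.33 for RPPH1, RN7SK and TERC, and with DESeq2 size factors -7.44, -6.29 and -2.37. With the length trend removed it was -5.76, -3.03 and -0.75 for RPPH1, RMRP and TERC. Each of these moved by more than 1 SD of the 6 pairs, and none changed direction. Leaving out each pair moved no RNA by 1 SD.

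Counts of called genes varied more. For the 22Rv1 against LNCaP difference in PSF-RIP over input, 0 became 7 with DESeq2, 13 without the filter on low counts and 413 with the line-treatment pair as a replicate block, and 0 to 1 with a library left out (1 without LNCaP vehicle PSF-RIP). For LTAD, 0 became 5 without the filter and 275 with the replicate block, and 0 to 1 with a library left out (1 without LTAD DHT PSF-RIP or LTAD vehicle input). For DHT by assay, 0 became 7 with the replicate block. For DHT in input, 86 became 139 with DESeq2 and 397 without the filter, and 13 to 170 with a library left out: 13 to 53 without any 1 input, the lowest without 22Rv1 DHT input, and 135 to 170 without a LNCaP or LTAD PSF-RIP library. For 22Rv1 against LNCaP input, 6877 became 5277 with DESeq2, 6970 without the filter and 4516 to 6980 with a library left out, the lowest without LNCaP vehicle input. For LTAD against LNCaP input, 1132 became 860 with DESeq2, 1673 without the filter and 285 to 1176 with a library left out: 285 to 434 without any 1 of the 4 inputs of these lines, the lowest without LTAD vehicle input. The causes were not tested.

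Of the tests of the 6 RNAs under other settings, 459 kept direction and side of the threshold, 20 gained and 13 lost a call, and 39 changed sign, none of them on a called value. All but 1 of the sign changes came from leaving out 1 library; the other is TERC, 22Rv1 against LNCaP in PSF-RIP over input, at -0.015 with DESeq2. With 1 library left out, the 22Rv1 difference in PSF-RIP over input ran from -0.41 to 0.19 for RPPH1, -0.61 to 0.39 for RN7SK and -0.16 to 0.32 for TERC, and the LTAD difference from -0.17 to 0.42 for RPPH1 and -0.85 to 0.15 for RN7SK. In inputs, 22Rv1 against LNCaP ran from -0.081 to 0.24 for RPPH1 and -0.44 to 1.06 for RN7SL1, LTAD against LNCaP from -0.16 to 1.34 for RN7SL1 and -0.45 to 0.078 for RN7SL2, and DHT from -0.79 to 0.0038 for RN7SL1. DHT by assay ran from -0.25 to 0.35 for RN7SK, -0.27 to 0.59 for RN7SL1, -0.20 to 0.22 for RN7SL2 and -0.087 to 0.25 for TERC. GSTA4 turned to 0.16 with the length trend removed. The count of RNase P and MRP proteins higher in PSF-RIP went from 1 to 2 without the filter, with the replicate block and without LNCaP DHT input, LNCaP vehicle PSF-RIP or LTAD DHT PSF-RIP. Of the RNAs with a CLIP peak in the second DHT list, 4 of 5 had one scoring at or above that list's median, and widening the loci by 500 bases added none in any list. RPPH1, RMRP and RN7SK are precise in counting; RN7SL1 in PSF-RIP and TERC in all libraries rest on 52 to 152 reads each, which limits their precision.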
